A study of Triticum aestivum with 9 samples.

Results

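PsbO and PsbP are nuclear-encoded proteins that sit on the inner side of the thylakoid membrane and belong, with others, to the oxygen-evolving complex, the water-splitting side of photosystem II. PsbO stabilises the manganese cluster that splits water. PsbP helps the cluster keep its calcium and chloride ions. In a wheat grain the green tissue is the inner pericarp, whose cells photosynthesise while the grain fills and lose their chlorophyll as it matures.

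Both genes are among the 771 that the platform annotation names. It gives 1 probe set to PsbO (LOC543291) and 2 to PsbP (LOC543290), 3 in all of the 61115 wheat probe sets on the array, and all 3 are described here. They were found by gene identifier only. The PsbO probe set has the suffix _a_at, which marks, in Affymetrix's naming, a set that reads several transcripts of the same gene. The brighter PsbP probe set has the plain suffix _at and the dimmer the suffix _x_at, which marks probes that can also bind other sequences. No further probe set on the array carries the cluster number of any of these. Wheat is hexaploid, so each signal can include transcripts of related copies, and no signal can be given to 1 copy alone.

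The samples were whole grains of the bread wheat cultivar Jimai 20, grown untreated in field plots and collected at 11 (P1), 15 (P2) and 20 (P3) days post-anthesis. Each phase had 3 biological replicates with an Affymetrix wheat array each, 9 arrays in all. Values are MAS5 signals, a linear measure of brightness that is scaled on each array. Because of this scaling, a signal is relative to the other signals on its array. Whether a lower signal came from fewer green cells, from less RNA per cell or from another change in the grain's RNA cannot be told apart in whole grain.

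The phases differed in measures of RNA and labelling. Median signals lay between 71.6 and 90.4, and background, the 95th percentile of probe sets for sequences foreign to wheat, between 89.4 and 153. The poly-A control transcripts, added before labelling, had a log2 level of 0.61 to 0.62 relative to the mean of all arrays at P2, against -0.26 to -0.20 at P1 and -0.40 to -0.38 at P3. The log2 of their 3-prime over their 5-prime signal, averaged over the controls, was 2.08 to 2.28 at P1, 1.27 to 1.56 at P2 and 2.11 to 2.16 at P3. The same log2 ratio for the wheat control transcripts on the array lay between 3.16 and 3.59 on the P1 arrays, 2.02 and 2.21 on the P2 arrays, and 2.49 and 2.61 on the P3 arrays. The P2 arrays thus stood apart in the poly-A controls, and in the wheat ratio no phase overlapped another, so each comparison of phases is also one of arrays that differ in it. Starchy endosperm markers (alpha-gliadin, low-molecular-weight glutenin and GBSS-I) summed to 97681 to 107489.9 at P1, 108512 to 114846 at P2 and 104193 to 143742 at P3, so the labelled tissue carried its markers in each phase. The 4 markers of embryo and aleurone (EM, EMH2, WGA2 and Rab15) summed to 552 to 813 at P1, 17243 to 18987 at P2 and 103776 to 123067 at P3. At P1 that sum was mostly Rab15 (417 to 615), while EM (34.2 to 50.5), EMH2 (50.3 to 96.7) and WGA2 (16.3 to 94.8) were below or near the P1 backgrounds of 89.4 to 103. The part of these markers and ratios in the results on PsbO and PsbP was not tested, beyond fits with each ratio as a covariate.

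PsbO was bright at P1 and lower in each later phase. Its signal was 7912, 7741 and 9204 on the P1 arrays, 4843, 4315 and 4543 on the P2 arrays, and 1731, 1564 and 1815 on the P3 arrays. The phases did not overlap, and replicates lay close together, with a coefficient of variation of 9.65% at P1, 5.80% at P2 and 7.49% at P3. Even at P3 each signal was 13.5 to 18.2 times the background of its array, so the decline was measured well above it. Mean signals with SDs over 3 arrays were 8286 ± 799.7 at P1, 4567 ± 265 at P2 and 1703 ± 128 at P3.

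PsbP on its brighter probe set followed PsbO, with a smaller difference between P1 and P2. The signal was 8867, 9297 and 8569 on the P1 arrays, 6696, 7040.2 and 5683 on the P2 arrays, and 2377, 2267 and 2557 on the P3 arrays. Every P2 array was below every P1 array and above every P3 array. Means with SDs were 8911 ± 366 at P1, 6473 ± 706 at P2 and 2400.1 ± 146 at P3 (n = 3 each), where it was still 19.6 to 25.6 times background.

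The dimmer PsbP probe set had another shape. Its signal was 1310.0, 1260.2 and 1063 on the P1 arrays, 1481, 1413 and 1373 on the P2 arrays, and 494, 482 and 566 on the P3 arrays. Here the P2 arrays were the highest and the P3 arrays the lowest, with no overlap between phases. Its means with SDs were 1211 ± 131 at P1, 1422 ± 54.9 at P2 and 514 ± 45.6 at P3 (n = 3 each), or 4.17 to 5.68 times background at P3.

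**Figure D1:**
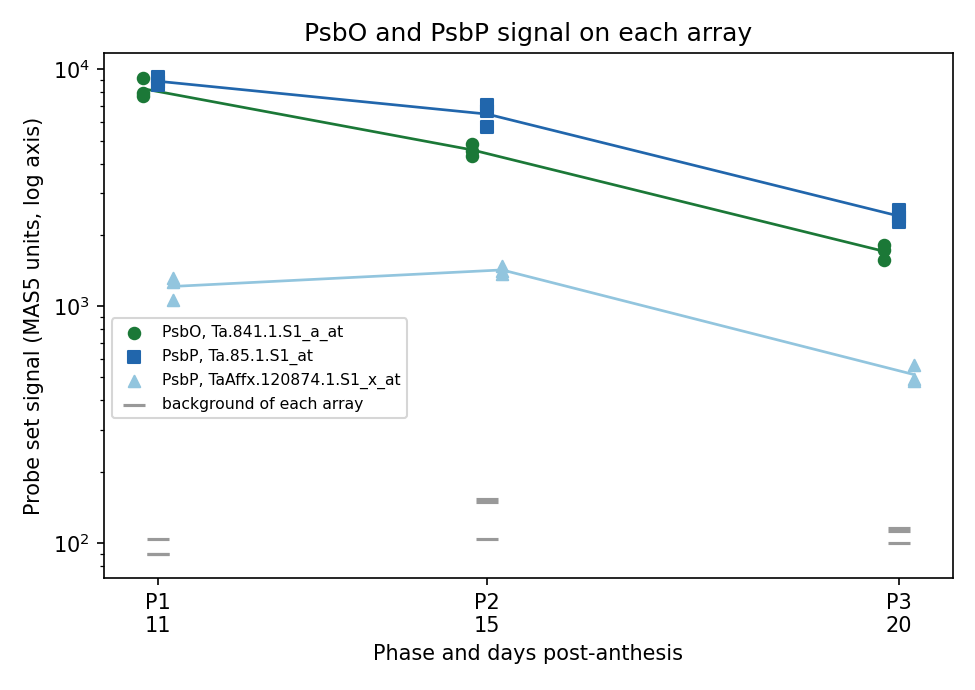
Signal of the PsbO and PsbP probe sets in MAS5 units (log axis) against days post-anthesis. Points are arrays, 3 per phase, lines join the phase means, and grey bars mark the background of each array. PsbO and the brighter PsbP probe set are lower at each later phase, while the dimmer PsbP probe set averages 1211 at P1, 1422 at P2 and 514 at P3.

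Between the last and the first phase all 3 probe sets fell, against 4.76% of all 36669 tested probe sets that fell and 8.36% that rose in this comparison. Changes were tested with limma over all 9 arrays, and a call needed a Benjamini-Hochberg adjusted p under 0.05 and a 2-fold difference. All 3 probe sets had passed the filter on low signal. PsbO averaged 1703 at P3 and 8286 at P1, a 4.86-fold fall (log2 change -2.28, SE 0.09, adjusted p = 6.54e-10). The brighter PsbP probe set averaged 2400.1 at P3 and 8911 at P1, a 3.72-fold fall (log2 change -1.89, SE 0.08, adjusted p = 3.58e-09). The dimmer one averaged 514 at P3 and 1211 at P1, a 2.35-fold fall (log2 change -1.23, SE 0.11, adjusted p = 1.54e-06). Only 1.14% of tested probe sets had a lower log2 change than PsbO, 1.74% a lower one than the brighter PsbP probe set and 4.18% a lower one than the dimmer. Every P3 array was below every P1 array for 3 of 3 probe sets, as for 21.2% of all tested probe sets, while 26.5% of all had every P3 array above. A fit without the P2 arrays gave 3 calls in the same direction. So did a fit with the wheat ratio as a covariate, in which the log2 changes were -2.09 for PsbO, -2.03 for the brighter and -1.76 for the dimmer PsbP probe set. The SEs were then 0.24, 0.24 and 0.25. As that ratio does not overlap between the P1 and P3 arrays, this fit can hardly separate it from the phase.

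The early step, P2 against P1, separated the probe sets. None of the 3 was called by limma with its 2-fold criterion, against 5.79% of all tested probe sets that fell and 6.89% that rose. PsbO averaged 4567 at P2 and 8286 at P1 (log2 change -0.86, SE 0.09, adjusted p = 8.83e-06), a 1.81-fold difference that missed the 2-fold criterion. The brighter PsbP probe set averaged 6473 at P2 and 8911 at P1 (log2 change -0.47, SE 0.08, adjusted p = 0.00102). The dimmer PsbP probe set averaged 1422 at P2 and 1211 at P1 (log2 change 0.24, 95% interval 0.01 to 0.47, adjusted p = 0.106). The P2 arrays were wholly below the P1 arrays for 2 probe sets, as for 23.3% of all tested, and wholly above them for 1, as for 22.8%. The spread between the highest and lowest of the 3 log2 changes was 1.09. PsbO was called under scaling to the hybridization controls (-1.01), and scaling to the poly-A controls, which were brightest at P2, gave -1.70 for PsbO, -1.31 for the brighter PsbP probe set and -0.60 for the dimmer. With the poly-A ratio as a covariate no early change passed the adjusted p (-0.87 for PsbO, adjusted p = 0.238, -0.84 and -0.02 for the brighter and dimmer PsbP probe sets, adjusted p = 0.211 and 0.988). Nor did any with the wheat ratio (-0.57, -0.67 and -0.57, adjusted p = 0.647, 0.556 and 0.671). The SEs rose from 0.09, 0.08 and 0.11 to 0.33, 0.30 and 0.39 with the poly-A ratio. With the wheat ratio they were 0.36, 0.36 and 0.37. Both ratios differ between the P1 and P2 arrays, so these fits can hardly separate a ratio from the phase.

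The late step, P3 against P2, was of nearly the same size on all 3 probe sets. All 3 fell, against 2.77% of all tested probe sets that fell and 4.46% that rose, and their log2 changes lay within 0.05 of each other. PsbO averaged 1703 at P3 and 4567 at P2, a 2.68-fold fall (log2 change -1.42, SE 0.09, adjusted p = 2.08e-07). The brighter PsbP probe set averaged 2400.1 at P3 and 6473 at P2, a 2.69-fold fall (log2 change -1.43, SE 0.08, adjusted p = 1.86e-07). The dimmer averaged 514 at P3 and 1422 at P2, a 2.77-fold fall (log2 change -1.47, SE 0.11, adjusted p = 9.3e-07). Every P3 array was below every P2 array for 3 of 3, as for 17.1% of all tested probe sets, while 23.2% of all had every P3 array above. With the poly-A ratio as a covariate the calls ended (log2 change -1.42 for PsbO, adjusted p = 0.0669, -1.09 and -1.23 for the PsbP probe sets, adjusted p = 0.128 and 0.179). The SE for PsbO was then 0.30, against 0.09 without the ratio, in which the P2 arrays stood apart. Scaling to the poly-A controls, under which the median of all probe sets was 1.07, gave -0.42, -0.43 and -0.47.

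**Figure D2:**
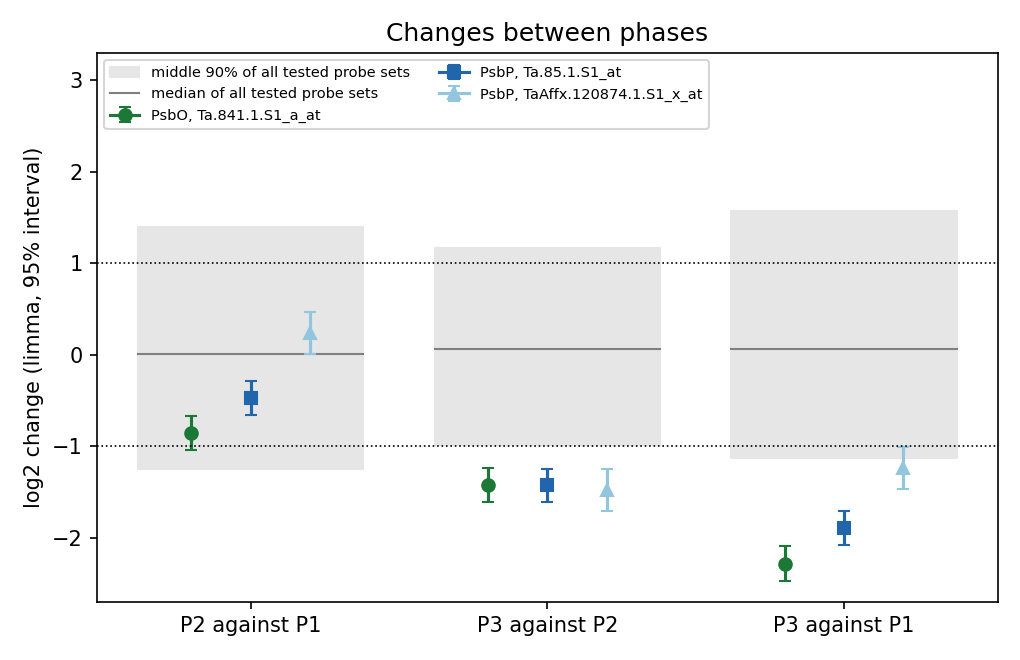
Log2 change between phases for the PsbO and PsbP probe sets, with 95% intervals from limma. Grey bands span the middle 90% of all 36669 tested probe sets, the grey line is their median, and dotted lines mark 2-fold. The 3 probe sets are apart in P2 against P1 (-0.86, -0.47 and 0.24) and together in P3 against P2 (-1.42, -1.43 and -1.47).

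A direct test compared the late step with the early step within the same fit. The log2 change of PsbO was lower in the late step by a difference of -0.57 (SE 0.15, adjusted p = 0.0132). For the brighter PsbP probe set the difference was -0.96 (SE 0.15, adjusted p = 0.000412), and for the dimmer -1.71 (SE 0.18, adjusted p = 2.59e-05). Of all tested probe sets 12.4% had such a difference below 0 at an adjusted p under 0.05 and 15.3% one above 0. The early step covers 4 days and the late step 5. Per day, the log2 change of PsbO was -0.21 in the early and -0.28 in the late step, which did not pass the test (difference -0.071, SE 0.034, adjusted p = 0.144, a comparison added after the data were seen). That of the brighter PsbP probe set was -0.12 and -0.29 per day (adjusted p = 0.00225), and that of the dimmer 0.06 and -0.29 (adjusted p = 4.86e-05). Per day, 12.9% of all tested probe sets passed below 0 and 15.6% above. Both steps share the P2 arrays, which differ from the others in both 3-prime to 5-prime ratios. A fit with either ratio can therefore hardly separate it from the phase. With the poly-A ratio as a covariate none of the 3 differences passed (-0.55 for PsbO, adjusted p = 0.813, -0.25 and -1.21 for the brighter and dimmer PsbP probe sets, adjusted p = 0.923 and 0.596). None passed with the wheat ratio either (-0.96, -0.68 and -0.62, adjusted p = 0.520, 0.691 and 0.741), and scaling to the poly-A controls turned the differences to 1.27, 0.88 and 0.13. For PsbO the difference did not pass without P2 replicate 1 (-0.48, adjusted p = 0.0703), under median scaling (-0.49, adjusted p = 0.171), when scaled by the hybridization controls (-0.42, adjusted p = 0.421) or without an intensity trend (adjusted p = 0.0712). For the brighter PsbP probe set the hybridization controls gave -0.81 (adjusted p = 0.0618).

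Ratios of signals on the same array do not depend on how that array was scaled, so they show whether the probe sets changed by the same factor. They cannot show this for the genes themselves, as the PsbP probe sets did not keep a constant ratio to each other. Whether they follow the 3-prime to 5-prime ratios, which differ between phases, was not tested. With the wheat ratio as a covariate, the P3 against P1 log2 changes were -2.09 (PsbO), -2.03 (brighter PsbP) and -1.76 (dimmer PsbP). Without it they were -2.28, -1.89 and -1.23, and the SEs were smaller. PsbO and the brighter PsbP probe set had a log2 ratio of -0.16, -0.26 and 0.10 on the P1 arrays, -0.47, -0.71 and -0.32 on the P2 arrays, and -0.46, -0.54 and -0.49 on the P3 arrays. Every P1 array was above every other array, and P2 and P3 overlapped. An exact permutation test of the F statistic over the 9 arrays gave p = 0.0393 (adjusted p = 0.0393 over 3 ratios). Between the means, the ratio differed by -0.39 for P3 against P1, by -0.39 for P2 against P1 and by 0.0033 for P3 against P2. This test lost significance in 6 of the 9 runs that left out 1 array, P1 replicates 1 and 3, P2 replicate 1 and each P3 array (highest adjusted p = 0.0964), although the difference of P3 from P1 kept its direction, at -0.47 to -0.28. Replicates of 1 phase spread with an SD of 0.19 (P1), 0.19 (P2) and 0.04 (P3).

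Set against PRK (LOC543283), phosphoribulokinase of the Calvin cycle, PsbO and the brighter PsbP probe set lost more signal. The dimmer PsbP probe set did not, with a log2 change of -1.23 for P3 against P1 where PRK had -1.40. The log2 ratio of PsbO to PRK was 1.03, 1.02 and 1.36 on the P1 arrays, 0.75, 0.68 and 0.87 on the P2 arrays, and 0.29, 0.12 and 0.36 on the P3 arrays. The phases did not overlap, and the exact permutation test over phases gave p = 0.00357, the smallest that 1680 orderings allow (adjusted p = 0.0107). The adjusted p of this test was also 0.0107 when any single array was left out. Permuted within replicate numbers, where the smallest p is 0.0278, the adjusted p was 0.0833. The log2 ratio of the brighter PsbP probe set to PRK was 1.20, 1.28 and 1.26 on the P1 arrays, 1.22, 1.39 and 1.19 on the P2 arrays, and 0.74, 0.66 and 0.86 on the P3 arrays. P1 and P2 overlapped and P3 lay below both (exact permutation p = 0.0321, adjusted p = 0.0393, or 0.0536 without P1 replicate 1). Between 2 phases, 3 arrays against 3 cannot give an exact p under 0.1. With both PsbP probe sets averaged, the difference of P3 from P1 was -0.72 for PsbO to PsbP and -0.16 for PsbP to PRK, against -0.39 and -0.49 with the brighter probe set alone.

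The PsbP probe sets did not keep a constant ratio to each other. The log2 ratio of the brighter to the dimmer was 2.76, 2.88 and 3.01 on the P1 arrays, 2.18, 2.32 and 2.05 on the P2 arrays, and 2.27, 2.23 and 2.18 on the P3 arrays. All P1 arrays were above the rest, while P2 and P3 overlapped. The exact permutation test, added after the data were seen, gave p = 0.025 (adjusted p = 0.0393 over 4 ratios). Which copies or other sequences each probe set reads was not tested.

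**Figure D3:**
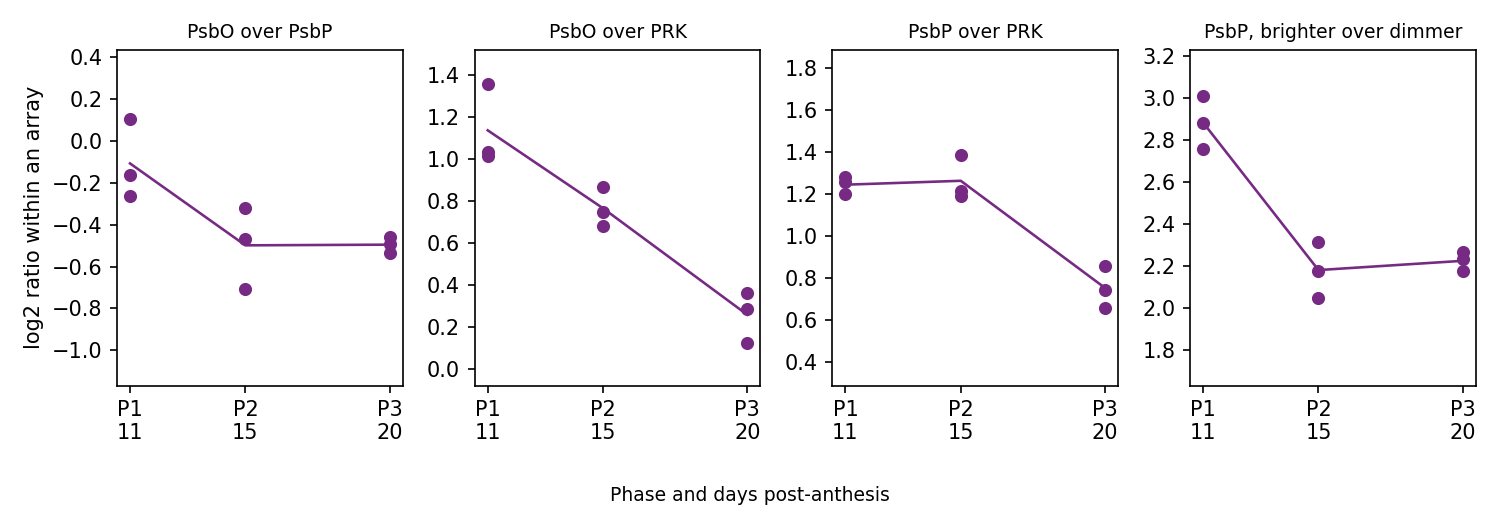
Log2 ratio of signals within an array against days post-anthesis, for PsbO over PsbP, PsbO over PRK, PsbP over PRK, and the brighter over the dimmer PsbP probe set. Points are arrays, 3 per phase, lines join phase means, and every panel spans the same height. PsbO over PRK averages 1.14 at P1, 0.77 at P2 and 0.26 at P3, while the ratio of the PsbP probe sets differs mainly between P1 (2.88) and P2 (2.18).

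The annotation names 5 other genes for photosynthesis by the search terms used, with 34 probe sets, of which 28 belong to rbcl (LOC100049018), the large subunit of rubisco. After the filter 12 probe sets of 4 genes were tested, 9 of them of rbcl, so counts and medians over the list are mostly those of 1 gene. For P3 against P1, 3 fell and 0 rose, with a median log2 change of -0.86 against 0.07 for all tested probe sets. For P2 against P1, 1 fell and 1 rose (median -0.01 against 0.01), and for P3 against P2, 4 fell and 0 rose (median -0.82 against 0.07). The 3 probe sets of PRK, petC and FBP alone had median log2 changes of -1.28 (P3 against P1), -0.58 (P2 against P1) and -0.71 (P3 against P2), with 3, 1 and 0 falls. The rbcl probe sets alone had medians of -0.69, 0.09 and -1.02, with 0, 0 and 4 falls. The gene LOC543415, which carries the synonym atpA among others of unlike function, was too dim to be tested.

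PRK and petC, the Rieske iron-sulphur protein that passes electrons between the photosystems, were lower in each later phase. PRK had a mean and SD over 3 arrays of 3758 ± 149.8 at P1, 2689 ± 198 at P2 and 1422 ± 11.6 at P3, and fell 2.64-fold at P3 against P1 (log2 change -1.40, adjusted p = 1.54e-08). The signal of petC averaged 5323 ± 58.6 at P1, 3569 ± 214 at P2 and 2189 ± 178 at P3, and fell 2.44-fold at P3 against P1 (log2 change -1.28, adjusted p = 4.52e-08). Neither was called in a single step, as each change missed the 2-fold criterion. In limma the early changes were -0.48 for PRK (adjusted p = 0.00025) and -0.58 for petC (adjusted p = 7.58e-05). The late changes were -0.92 for PRK (adjusted p = 2.33e-06) and -0.71 for petC (adjusted p = 2.43e-05). FBP, fructose bisphosphatase, averaged 691 ± 60.1 at P1, 326 ± 9.56 at P2 and 297 ± 45.2 at P3. It fell in the early step (log2 change -1.08, adjusted p = 9.52e-05), and its late change of -0.15 was not called (adjusted p = 0.514). With the poly-A ratio as a covariate the early call ended (-1.15, SE 0.54 against 0.14 without it, adjusted p = 0.355). Whether the genes differ in the order of their steps was not tested.

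The brightest rbcl probe set averaged 60238 ± 3146 at P1, 64122 ± 4326 at P2 and 43303 ± 2826 at P3. Its log2 change of -0.48 for P3 against P1 (adjusted p = 0.000448 in limma) missed the 2-fold criterion and was not called. Of the other rbcl probe sets above background on every array, some differed more. One averaged 23224 at P3 and 45993 at P1 (log2 change -0.99, 50.4% of P1 on the log2 scale), and another 413 at P3 and 769.5 at P1 (-0.89, 53.8%), neither past the 2-fold criterion. A further one differed less, with 301 at P3 and 339 at P1 (-0.24, adjusted p = 0.624 in limma). The 4 probe sets that fell for P3 against P2 were all of rbcl, and 1 of them was below background on every array of both phases. The 1 that rose for P2 against P1 was the rbcl probe set that averaged 339 at P1, with 778 at P2. It was 2.42 to 4.81 times background at P1 and 3.80 to 7.47 times at P2. Its call ended without P1 replicate 1 or P2 replicate 2. Without P2 replicate 2 or P3 replicate 3 the count that fell for P3 against P2 was 2. The count of 3 that fell for P3 against P1 was 5 under quantile normalization, 6 with array medians set equal and 5 with the hybridization controls as the scale.

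**Figure D4:**
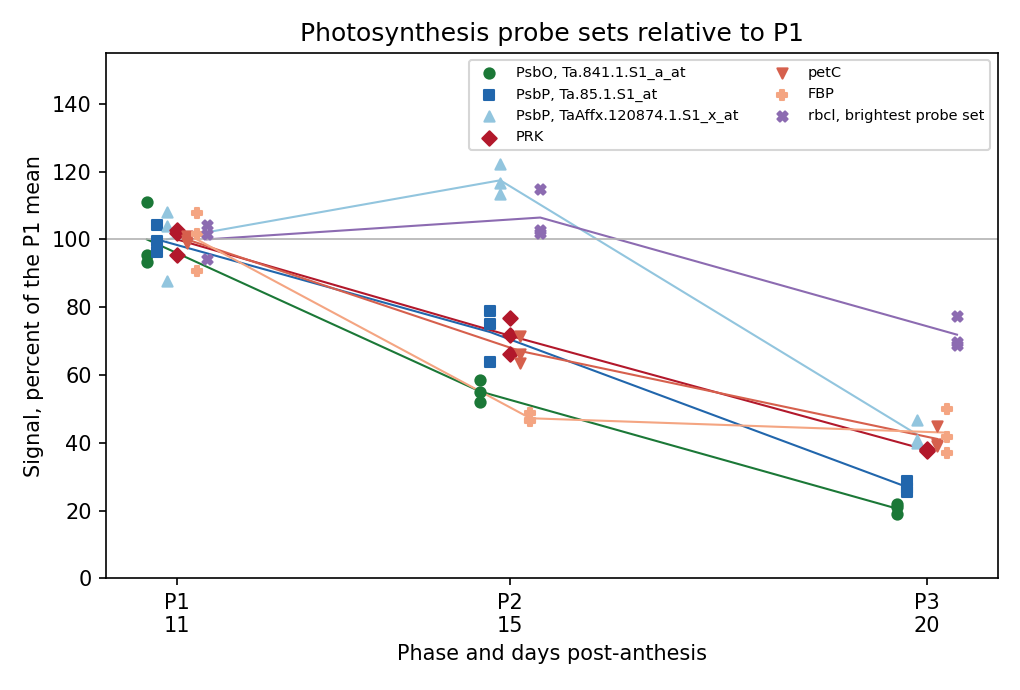
Signal of photosynthesis probe sets as a percentage of the P1 mean of the same probe set, against days post-anthesis. Points are arrays, 3 per phase, and lines join phase means. At P3 PsbO stands at 20.6% and the brighter PsbP probe set at 26.9% of P1, below PRK (37.8%), petC (41.1%), FBP (43.0%) and the brightest rbcl probe set (71.9%), while the dimmer PsbP probe set stands at 42.4%, above PRK and petC.

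Among 93 other genes with an informative symbol or synonym, PRK had the pattern most like both. Over the 9 arrays the log2 signal of PsbO correlated with PRK at a Pearson r of 0.988, with petC at 0.987, with the tubulin gene tubb3 (LOC543473) at 0.972, with AGA.1 (LOC543278) of the starch pathway at 0.963 and with Glc1 (LOC543469) at 0.963. The brighter PsbP probe set correlated with PRK at 0.990, with tubb3 at 0.987, with Trx-M (LOC542973), a plastid thioredoxin, at 0.973, with GSTZ1 (LOC543412), a glutathione transferase, at 0.968 and with Glc1 at 0.960. These genes share the direction and not the size of the change, since the log2 change of tubb3 for P3 against P1 was -0.74. PsbO correlated with the brighter PsbP probe set at 0.979 and with the dimmer at 0.846, and the PsbP probe sets with each other at 0.918. The 9 points share 3 phases and the same arrays, and 71 tested probe sets, that of PRK included, were at least as close to PsbO as PRK was, so the values only describe the likeness.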

How the data were processed

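Signals of 61290 probe sets on 9 arrays were used. The authors deposited linear intensity values made with MAS5, per the submitters' processing notes, with no version named. Each deposited array had a mean intensity of 500.1 once 2% was trimmed at each end. Groups and replicate numbers came from the sample titles. Control probe sets (111 of Affymetrix and 64 reporters) were left out, and the 95th percentile of the reporters served as background. The platform annotation names 1273 probe sets, and its genes were matched by identifier to the RefSeq table of assembly IWGSC CS RefSeq v2.1 for symbols only.

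Analysis used log2 of the signal, with 0 added. A filter removed the 40% of wheat probe sets that were lowest in mean log2 signal and left 36669. One limma 3.58.1 model (R 4.3.3) held all 9 arrays with phase as factor, an intensity trend and 6 residual degrees of freedom, with Benjamini-Hochberg adjustment over all tested probe sets. It was tested on simulated data. Ratios were tested by two-sided exact permutation. Errors of signals are SDs over 3 arrays, and the number of arrays limits precision. The members, gene lists, search terms and rules for named genes (each member, the brightest probe set of each listed gene, and the 5 most alike named genes) were chosen with earlier results of these data known. Alternatives were other scalings, pseudocount, background floor, filters, phases fitted, replicate block, covariates, trend and each array left out.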

Additional observations from a re-analysis of the deposited data

How the results depend on the processing

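The falls of the 3 PsbO and PsbP probe sets for P3 against P1 kept their direction and call under each of 22 alternatives, with log2 changes of -2.45 to -2.09 for PsbO, -2.07 to -1.73 for the brighter and -1.76 to -1.08 for the dimmer PsbP probe set. Some of these alternatives could change only the p-values and not these log2 changes. They were the filters, background floor, replicate block, trend, phases fitted and leaving out a P2 array. Results that rest on P2 depended on the processing, and the cause was not tested beyond the values given. Over all probe sets, the median change for P3 against P1 was -0.11 under median scaling and 0.07 as reported, and for P3 against P2 it was 1.07 under scaling to the poly-A controls. Taking that median off cancels any scaling of whole arrays, so only quantile normalization can differ, and gave -1.40 for PsbO at P3 against P2, against -1.49 as reported. Scaling to the poly-A controls gave P2 against P1 changes of -1.70, -1.31 and -0.60 for PsbO and the brighter and dimmer PsbP probe sets, P3 against P2 changes of -0.42, -0.43 and -0.47, and step differences of 1.27, 0.88 and 0.13. It called 13615 and 18734 probe sets in these steps, against 4652 and 2650 as reported. In the photosynthesis list 3 fell and 0 rose for P2 against P1, and 0 fell and 1 rose for P3 against P2. It gave P3 against P2 changes of 0.083 for PRK, 0.29 for petC, 0.85 for FBP and 0.43 for rbcl, and P2 against P1 of -0.75 for rbcl. Scaling to the hybridization controls gave -1.01 for PsbO at P2 against P1, step differences of -0.42 and -0.81 for PsbO and PsbP, 5 falls in the list for P3 against P1, and -0.066 for rbcl at P2 against P1. Median scaling gave -0.49 for the PsbO step difference, 6 falls and -0.036 for rbcl, and quantile normalization 5 falls and -0.10. The poly-A ratio as a covariate gave -0.023 for the dimmer PsbP probe set at P2 against P1, P3 against P2 changes of -1.42, -1.09 and -1.23, step differences of -0.55, -0.25 and -1.21, and 857 and 291 called probe sets. As a covariate, the 3-prime to 5-prime ratio of wheat transcripts, added after seeing the data, gave -0.57 for the dimmer PsbP probe set and -0.13 for rbcl at P2 against P1, 0.064 for FBP at P3 against P2, step differences of -0.96, -0.68 and -0.62, and 552 and 1638 called probe sets in the steps and 2142, against 4813 as reported, for P3 against P1. Both covariates ended the early call of FBP. The PsbO step difference of -0.57 had an adjusted p = 0.0712 without an intensity trend, and was -0.071 when divided by days. With 1 probe set per gene 0 in the list rose for P2 against P1 and 0 fell for P3 against P2. Leaving out 1 array gave a PsbO step difference of -0.65 to -0.48, 0 to 1 rises for P2 against P1, 2 to 4 falls for P3 against P2, and P3 minus P1 log2 ratios of -0.47 to -0.28 for PsbO to PsbP and -0.54 to -0.45 for PsbP to PRK.

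Deviations of same-numbered arrays from their phase means correlated at -0.045 to 0.032 over 9 pairs, so replicate numbers do not pair the arrays. With a replicate block no limma call of PsbO or PsbP changed (log2 change -2.28 for PsbO, P3 against P1, adjusted p = 6.33e-09), and the ratios, permuted within numbers (216 orderings, smallest p 0.0278), had adjusted p = 0.111 for PsbO to PsbP (-0.39), 0.0833 for PsbO to PRK (-0.88) and 0.111 for PsbP to PRK (-0.49).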
